A study of Mus musculus with 6 samples.

Results

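Class I antigen presentation shows peptides from a cell's own proteins at its surface. In the immunoproteasome, the inducible subunits encoded by Psmb8, Psmb9 and Psmb10 take the places of constitutive catalytic subunits and change which peptides the particle cuts. Tap1 and Tap2 form the transporter that carries these peptides into the endoplasmic reticulum, and tapasin, encoded by Tapbp, bridges that transporter to empty class I molecules. The class I heavy chains H2-K1 and H2-D1 pair there with beta-2 microglobulin, encoded by B2m. Nlrc5 is a transcriptional activator of these genes, and interferon gamma is their best known inducer. Resting muscle fibres are known for low class I levels.

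These 10 genes were taken by symbol from the 43346 genes of a gastrocnemius RNA sequencing table, and all 10 were found and passed the filter on low counts. The tested mice were 3 Vdr knockout animals, Vdrfl/fl.actin iCre males aged 6 months that received tamoxifen at 100 mg/kg by intraperitoneal injection for 5 days. The other 3 animals were vehicle controls of the same age, sex and genotype that received 10% ethanol in corn oil without tamoxifen. In both groups the injections were 75 microliters with 10% ethanol, given for 5 days. Both groups carried Vdr alleles with loxP sites around exon 3 and the transgene Tg(ACTA1-cre/Esr1*)2Kesr, in which the human skeletal actin promoter drives a tamoxifen-dependent Cre, so deletion was directed at muscle fibres and not at the other cells of the tissue. Glucose and strength tests took place 10 days after the last injection, before the muscle was collected. Loss of Vdr, Cre activity and tamoxifen itself cannot be told apart in this comparison, and tamoxifen-treated Vdrfl/fl mice without Cre were not analysed here. Each library came from a separate mouse, and replicate numbers only name the mice.

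The libraries held 30486874 to 39909535 counts. Vdr, the targeted gene, had 1.12 ± 0.368 CPM (counts scaled to the library total times a TMM factor, which adjusts for library composition) in knockout libraries and 1.44 ± 0.139 CPM in vehicle libraries (n = 3 each, SD), with overlapping groups and a log2 fold change of -0.37 (SE 0.37, edgeR adjusted p = 0.848). Counts summed over the whole gene do not isolate exon 3, and the labels were used as given. Markers of skeletal muscle were abundant in all libraries, at 83170 to 194000 CPM summed over 9 genes in knockout libraries and 163600 to 183700 CPM in vehicle libraries. Knockout replicate 2 stood apart: it had the lowest muscle sum, its 10 most abundant genes took 15.1% of counts against 20.8% to 25.2% elsewhere, and its slow-twitch markers had the highest sum. All 8 slow-twitch markers had higher estimates in the knockout (median log2 fold change 1.96, 0 at an unadjusted p under 0.05 in edgeR), with sums of 5761, 31120 and 9759 CPM in knockout libraries, against 9638, 1353 and 1099 CPM in vehicle libraries. Without vehicle replicate 1 all 8 met that mark (median 3.69), and without knockout replicate 2 the median was 0.88.

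All 10 genes had higher estimates in Vdr knockout muscle than in vehicle muscle, where 52.9% of all 15583 tested genes did. None of the 10 passed an adjusted p of 0.05 in the edgeR quasi-likelihood test, and neither did any other gene (0% of those tested). At an unadjusted p under 0.05 edgeR gave 5 of the 10, namely Psmb8, Psmb9, Tap1, Tap2 and Nlrc5, all higher in the knockout. Over all genes 4.02% met that mark with a higher estimate, among 1159 genes that met it in either direction. The median log2 fold change of the 10 genes was 0.63, against 0.02 over all tested genes. The knockout and vehicle libraries did not overlap for Psmb8 and Tap2, a pattern of knockout above vehicle that 5.83% of tested genes shared. DESeq2 called 1 of the 10, Psmb8 (adjusted p = 0.0248, against 0.0841 to 0.991 in the other 16 alternatives), where it called 0.281% of 18523 genes as higher and 110 genes in both directions. These genes were chosen with earlier results of the same libraries known, so the counts describe these libraries.

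**Figure D1:**
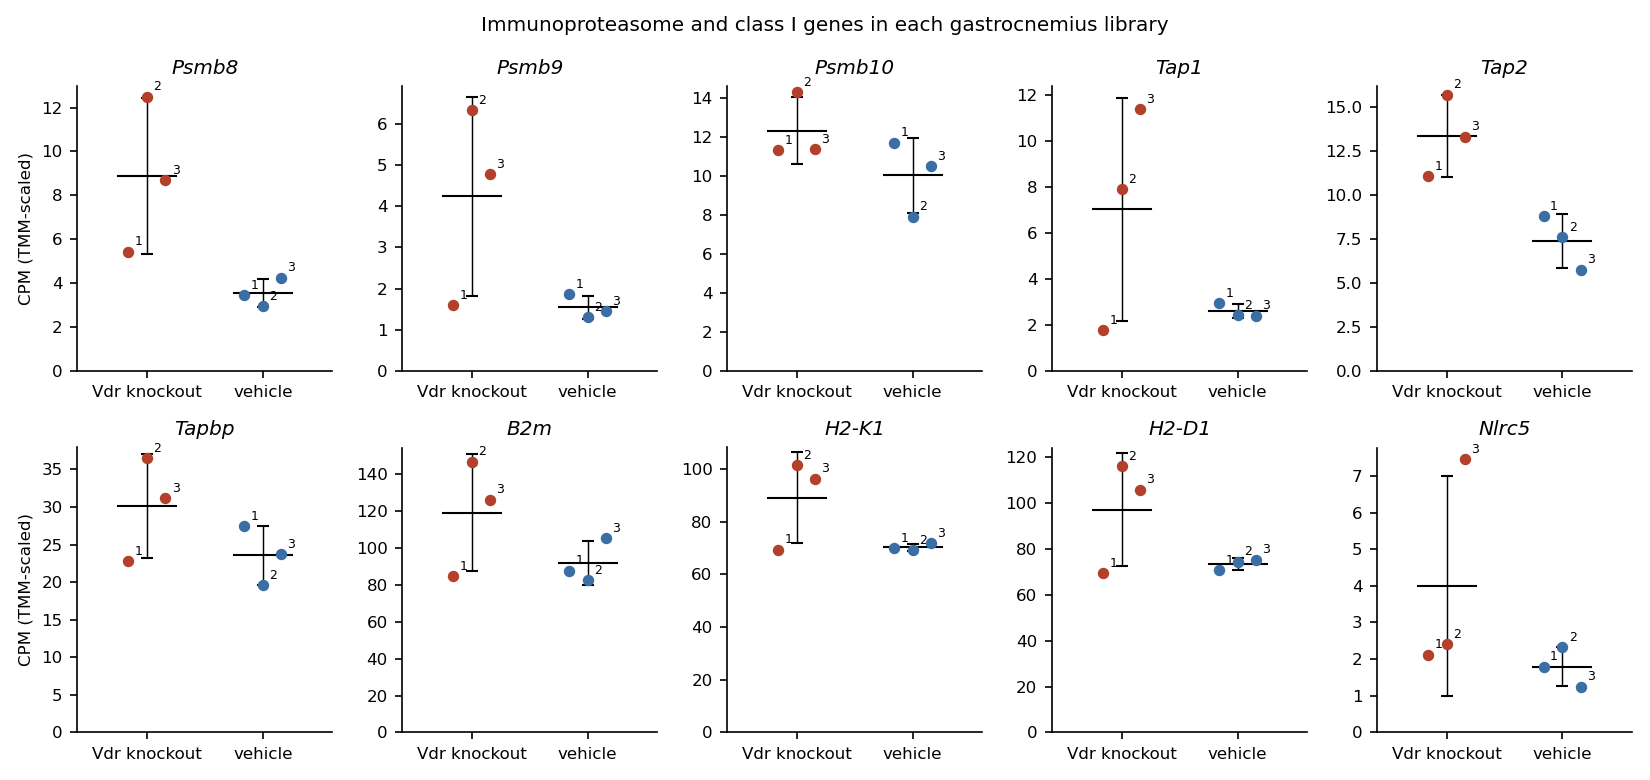
CPM, scaled by trimmed mean of M values (TMM), of the 10 genes in each library, with Vdr knockout on the left of each panel and vehicle on the right. Points are libraries with their replicate numbers, long bars are means and whiskers are 1 SD (n = 3 each). Knockout replicates 2 and 3 lie above all vehicle points in 9 panels, and knockout replicate 1 does so for Psmb8 and Tap2.

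Among the immunoproteasome subunits, Psmb8 and Psmb9 had the larger estimates. Psmb8 (chr17:34197721-34201454, plus strand, mm10) encodes the inducible counterpart of Psmb5, with chymotrypsin-like activity. It had 5.44, 12.5 and 8.71 CPM in knockout replicates 1, 2 and 3, against 3.44, 2.96 and 4.25 CPM in vehicle replicates 1, 2 and 3. Every knockout library lay above every vehicle library, and the smallest gap was between knockout replicate 1 and vehicle replicate 3. The mean was 8.88 ± 3.54 CPM in knockout and 3.55 ± 0.654 CPM in vehicle libraries (n = 3 each, SD), a ratio of 2.50. The edgeR estimate was 1.32 on the log2 scale (SE 0.32, 95% interval 0.61 to 2.04), with an adjusted p of 0.519.

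Psmb9 (chr17:34181988-34187764, minus strand) encodes the inducible counterpart of Psmb6. Its counts were 55, 219 and 179 in the knockout libraries, against 60, 48 and 56 in the vehicle libraries, or 1.60, 6.34 and 4.78 CPM in the knockout and 1.86, 1.32 and 1.46 CPM in vehicle libraries. Knockout replicates 2 and 3 were high, and knockout replicate 1 lay inside the vehicle range. On the log2 scale the difference was 1.46 (SE 0.46, 95% interval 0.42 to 2.49, edgeR adjusted p = 0.621).

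Psmb10 (chr8:105935728-105938392, minus strand) encodes the inducible counterpart of Psmb7, with trypsin-like activity. It had 11.3, 14.3 and 11.4 CPM in the knockout libraries, against 11.7, 7.92 and 10.5 CPM in the vehicle libraries. The groups overlapped, and only knockout replicate 2 lay above all vehicle libraries. Its log2 fold change of 0.30 (SE 0.21, 95% interval -0.17 to 0.76, edgeR adjusted p = 0.775) was the lowest of the 10. With knockout replicate 2 left out it was 0.18, and with vehicle replicate 2 left out 0.14.

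The constitutive catalytic subunits, which occupy the same places in the standard particle, had lower estimates in the knockout. Psmb5 had a log2 fold change of -0.18 (SE 0.19), Psmb6 -0.14 (SE 0.18) and Psmb7 -0.38 (SE 0.21), and none met an unadjusted p of 0.05 in edgeR. These signs were the same with DESeq2 size factors, upper-quartile factors and the deposited FPKM (fragment counts per gene length and library total). Per length, the inducible subunits were a small share of their counterparts in all libraries. Psmb8 stood at 1.75%, 3.53% and 3.18% of the FPKM of Psmb5 in knockout libraries, against 0.941%, 1.03% and 1.03% in vehicle libraries. These groups did not overlap, and the means were 2.82% ± 0.945 in knockout and 1.00% ± 0.0534 in vehicle libraries (n = 3 each, SD). The difference of 1.82 percentage points had an exact two-sided permutation p of 0.1, the smallest that 3 against 3 libraries can give, and 0.2 after adjustment over the 3 ratios.

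Psmb9 stood at 0.469%, 1.73% and 1.58% of Psmb6 in knockout libraries, against 0.487%, 0.412% and 0.357% in vehicle libraries, with knockout replicate 1 inside the vehicle range. Psmb10 stood at 3.76%, 5.32% and 4.45% of Psmb7 in knockout libraries, against 3.83%, 2.46% and 2.37% in vehicle libraries. Psmb7 itself had 288, 257 and 245 CPM in knockout libraries, against 293, 308 and 424 CPM in vehicle libraries. Every knockout value of Psmb7 lay below every vehicle value, so this ratio does not isolate Psmb10. For Psmb10 vehicle replicate 1 lay above knockout replicate 1. Both ratios gave an exact permutation p of 0.2, also 0.2 after adjustment over the 3 ratios.

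**Figure D2:**
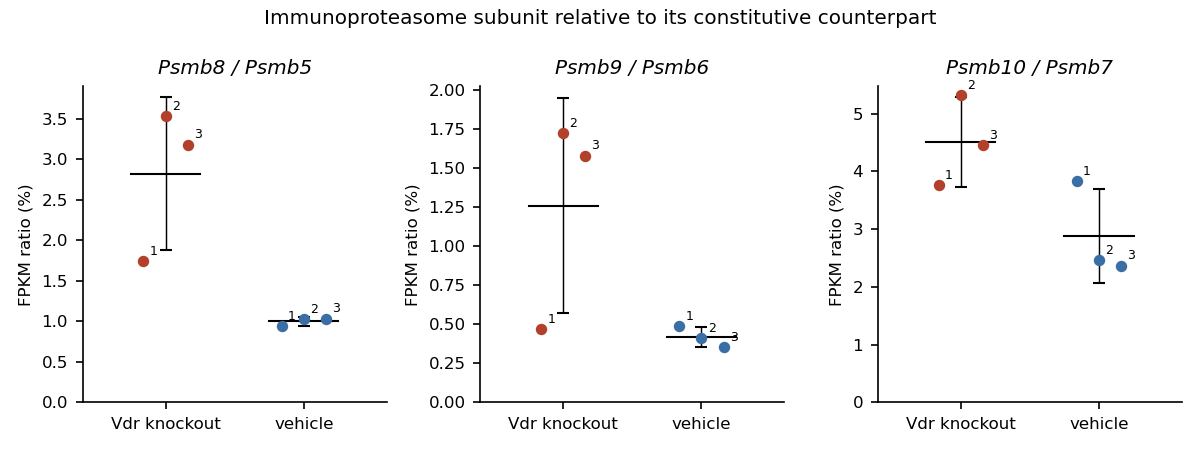
FPKM of each inducible subunit as a percentage of the FPKM of its constitutive counterpart, with Vdr knockout on the left and vehicle on the right of each panel. Points are libraries with replicate numbers, long bars are means and whiskers are 1 SD (n = 3 each). The groups are apart for Psmb8 over Psmb5, while knockout replicate 1 falls within the vehicle range in the other 2 panels.

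Among activators and assembly factors, Psme1 and Psme2 encode the chains of the interferon-inducible proteasome cap. Psme1 averaged 49.5 ± 10.8 CPM in knockout and 36.2 ± 7.41 CPM in vehicle libraries, or 0.45 as log2 fold change (SE 0.22). Psme2 averaged 33.6 ± 9.48 CPM in knockout and 25.8 ± 2.12 CPM in vehicle libraries, with 0.38 (SE 0.21). Psme4, a different cap, had an estimate of -0.37 (SE 0.22). Of the 5 genes in this list 3 had higher estimates, and none met an unadjusted p of 0.05 in edgeR.

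Psmb9, Tap1, Psmb8 and Tap2 lie next to each other in 34.3 kilobases of the class II region of the histocompatibility complex, chr17:34181988-34216321. Tap1 and Psmb9 are read away from each other, and their RefSeq starts are 226 bases apart. In GENCODE M21 the interval between these starts lies in the first exon, a UTR, of a longer Psmb9 transcript, and the Psmb8 region just before the RefSeq start lies in the first exon of a longer Psmb8 transcript. For that reason only 30 bases of each are shown, chosen because they hold a match to a listed motif in genes that did and did not overlap between the groups. Both are on the plus strand of GRCm38.p6, the mm10 build. The Psmb8 stretch is at chr17:34198088-34198117, and capitals mark a gamma-activated sequence match, TTCNNNGAA. The Tap1 stretch is at chr17:34187458-34187487, and capitals mark the X2 box core TGACG.
Psmb8: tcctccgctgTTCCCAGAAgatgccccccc
Tap1: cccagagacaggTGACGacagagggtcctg

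Tap1 (chr17:34187553-34197225, plus strand) encodes one chain of the peptide transporter. It had 1.77, 7.90 and 11.4 CPM in knockout replicates 1, 2 and 3, against 2.94, 2.44 and 2.40 CPM in the vehicle libraries. Knockout replicates 2 and 3 were the highest of the 6 libraries and knockout replicate 1 was the lowest. On the log2 scale the difference was 1.44 (SE 0.55, 95% interval 0.18 to 2.69, edgeR adjusted p = 0.646), and it was 0.90 without knockout replicate 3. Without knockout replicate 1 it was 1.89, and Tap1 passed the edgeR threshold (adjusted p = 0.0456, against 0.226 to 0.991 in the other 16 alternatives), as did 0.124% of 16071 genes on the higher side. Tap1 and Psmb9 overlap by 212 bases on opposite strands, and since the strand setting of the counting is not given in the sources used here, reads in that overlap are uncertain.

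Tap2 (chr17:34203527-34216321, plus strand) encodes the other chain. It had 11.1, 15.7 and 13.3 CPM in knockout libraries, against 8.83, 7.59 and 5.77 CPM in vehicle libraries, and the groups did not overlap. The means were 13.4 ± 2.32 CPM in knockout and 7.39 ± 1.54 CPM in vehicle libraries (n = 3 each, SD). On the log2 scale the difference was 0.86 (SE 0.22, 95% interval 0.35 to 1.36, edgeR adjusted p = 0.526, and 0.124 to 0.991 over 17 alternatives). Per length, Tap1 stood at 11.1%, 34.7% and 59.0% of the FPKM of Tap2 in knockout libraries, against 23.02%, 22.2% and 28.8% in vehicle libraries. This ratio was chosen after its values were seen and was not tested.

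Within the cluster, the pair Psmb8 and Tap2 and the pair Tap1 and Psmb9 differed in knockout replicate 1. For Psmb8 and Tap2 that library lay above all vehicle libraries, as it did for 22% of all tested genes. For Psmb9 and Tap1 it lay within or below the vehicle range, with 55 counts of Psmb9 and 61 of Tap1. This grouping was seen in the data and was not tested. Along the chromosome the order is Psmb9, Tap1, Psmb8 and Tap2, so Psmb8 lies beside Tap1 as well as Tap2.

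Tapbp (chr17:33915899-33929288, plus strand) had 22.8, 36.5 and 31.2 CPM in knockout libraries, against 27.5, 19.6 and 23.7 CPM in vehicle libraries. Knockout replicate 1 lay between vehicle replicates 2 and 3, and the estimate was 0.35 on the log2 scale (SE 0.21, 95% interval -0.12 to 0.82, edgeR adjusted p = 0.735). Leaving out knockout replicate 2 gave 0.19, and leaving out vehicle replicate 2 gave 0.23. Tapbp, the tapasin gene, overlaps Zbtb22 by 3421 bases on the same strand, so counts in that overlap are uncertain. Among other genes of peptide trimming and loading, 5 of 6 had higher estimates, against 4 with DESeq2 size factors and 6 with FPKM, and none met an unadjusted p of 0.05 in edgeR. Canx, the chaperone that holds new heavy chains, had a log2 fold change of 0.39 (SE 0.18). Pdia3, a disulfide isomerase of the loading complex, had 0.17 (SE 0.16). Lnpep, a peptidase that trims peptides in endosomes, had 0.45 (SE 0.67).

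The class I chains were the most abundant of the 10 genes. By deposited FPKM, B2m had 146 ± 52.6 in knockout and 103 ± 12.5 in vehicle libraries (n = 3 each, SD), above 97.3% of tested genes. H2-D1 followed at 39.8 ± 13.7 FPKM in knockout and 27.6 ± 1.03 FPKM in vehicle libraries. H2-K1 had 35.9 ± 10.4 FPKM in knockout and 26.1 ± 0.334 FPKM in vehicle libraries, and these neighbours in the order did not differ beyond their knockout spread. Next came Psmb10 with 10.1 ± 2.38 FPKM in knockout and 7.63 ± 1.40 FPKM in vehicle libraries, and Tapbp with 9.64 ± 3.14 FPKM in knockout and 6.92 ± 1.10 FPKM in vehicle libraries. Tap2 had 3.71 ± 1.02 FPKM in knockout and 1.89 ± 0.397 FPKM in vehicle libraries, and Psmb8 had 3.46 ± 1.68 FPKM in knockout and 1.25 ± 0.220 FPKM in vehicle libraries. Tap1 had 1.38 ± 0.983 FPKM in knockout and 0.458 ± 0.0517 FPKM in vehicle libraries. Psmb9 had 1.25 ± 0.791 FPKM in knockout and 0.408 ± 0.0716 FPKM in vehicle libraries. Nlrc5 was the lowest at 0.549 ± 0.426 FPKM in knockout and 0.227 ± 0.0707 FPKM in vehicle libraries. Psmb10 and Tapbp lay within each other's spread, as did Tap2 and Psmb8 in the knockout, and Tap1 and Psmb9 in both groups.

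B2m (chr2:122147686-122153083, plus strand) had 84.5, 147 and 126 CPM in knockout libraries, against 87.6, 82.6 and 105 CPM in vehicle libraries. The estimate was 0.38 on the log2 scale (SE 0.22, 95% interval -0.12 to 0.87, edgeR adjusted p = 0.734), and 0.57 without knockout replicate 1 or 0.20 without knockout replicate 2. H2-K1 (chr17:33996017-34000333, minus strand) had 69.4, 101 and 96.4 CPM in knockout libraries, against 69.9, 69.2 and 71.8 CPM in vehicle libraries. The vehicle libraries agreed closely, and knockout replicate 1 lay among them. The estimate was 0.34 on the log2 scale (SE 0.18, 95% interval -0.06 to 0.74, edgeR adjusted p = 0.708). H2-D1 (chr17:35262730-35267499, plus strand) had 69.7, 116 and 106 CPM in knockout libraries, against 70.7, 74.5 and 75.4 CPM in vehicle libraries, and 0.40 on the log2 scale (SE 0.20, 95% interval -0.05 to 0.86, edgeR adjusted p = 0.695). Without knockout replicate 2 the H2-D1 estimate was 0.25. For H2-D1 knockout replicate 1 was the lowest of the 6 libraries. H2-K1, H2-D1 and the other heavy chains are near-identical copies in part, so the division of reads between them is uncertain.

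NF-kappaB, interferon and Nlrc5 are known to act on class I genes through promoter elements, and the promoters of these 3 genes are shown to place those letters side by side. Capitals mark matches on the gene's strand or its complement. They are an NF-kappaB match (GGGATTCCC) in the heavy chains, an interferon-stimulated response element core (GAAANNGAA in B2m, and GAANNGAAA on the other strand in the heavy chains), the X2 box core TGACG and the Y box core ATTGG, which is CCAAT on the other strand. The RefSeq sequences are from GRCm38.p6, at chr2:122147537-122147646 (plus) for B2m and chr17:34000348-34000467 (minus) for H2-K1. For H2-D1 the matching region lies in a UTR exon of a longer GENCODE transcript, so only 30 bases with the NF-kappaB and interferon letters, at chr17:35262924-35262953 (plus), and 30 bases with the X2 and Y letters, at chr17:35262993-35263022 (plus), are shown.
B2m: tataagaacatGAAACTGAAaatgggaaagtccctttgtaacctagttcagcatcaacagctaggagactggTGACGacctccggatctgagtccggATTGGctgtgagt
H2-K1: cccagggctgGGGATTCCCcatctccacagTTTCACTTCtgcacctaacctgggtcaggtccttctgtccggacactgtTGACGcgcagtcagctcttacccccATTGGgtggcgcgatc
H2-D1 first: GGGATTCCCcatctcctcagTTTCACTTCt
H2-D1 second: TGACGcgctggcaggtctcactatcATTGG
Over the 120 bases that span these elements, H2-K1 and H2-D1 were equal at 107, or 89.2%.

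RefSeq windows, from 250 bases before to 50 after the start, were matched for 8 of the 10 genes, and Tap2 and Nlrc5 had none. Both strands were searched, and a motif could overlap another. The interferon-stimulated response element core GAAANNGAA was found for B2m and in 8.6% of 32851 mouse windows, and TTCNNNGAA for Psmb8 and in 8.3% of windows. TGACG was found for Psmb9, Tap1, B2m, H2-K1 and H2-D1, against 20.8% of windows, and CCAAT for these and Tapbp, against 37.4%. The windows of Psmb9 and Tap1 share 275 bases, so their matches are the same letters. GGGATTCCC was found for H2-K1 and H2-D1 and in 0.4% of windows. GAANNGAAA, added after the sequences were seen, was found for H2-K1 and H2-D1 and in 7.5% of windows. In B2m, H2-K1 and H2-D1 the first letters of TGACG and ATTGG lay 25 bases apart with 20 bases between the motifs. That spacing, also chosen after the sequences were seen, was found in 31 of all windows, or 0.094%, those of these 3 genes included. The class I gene H2-M3 was among them, but most of the 27 gene symbols were not class I genes. A match is a description of letters only.

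**Figure D3:**
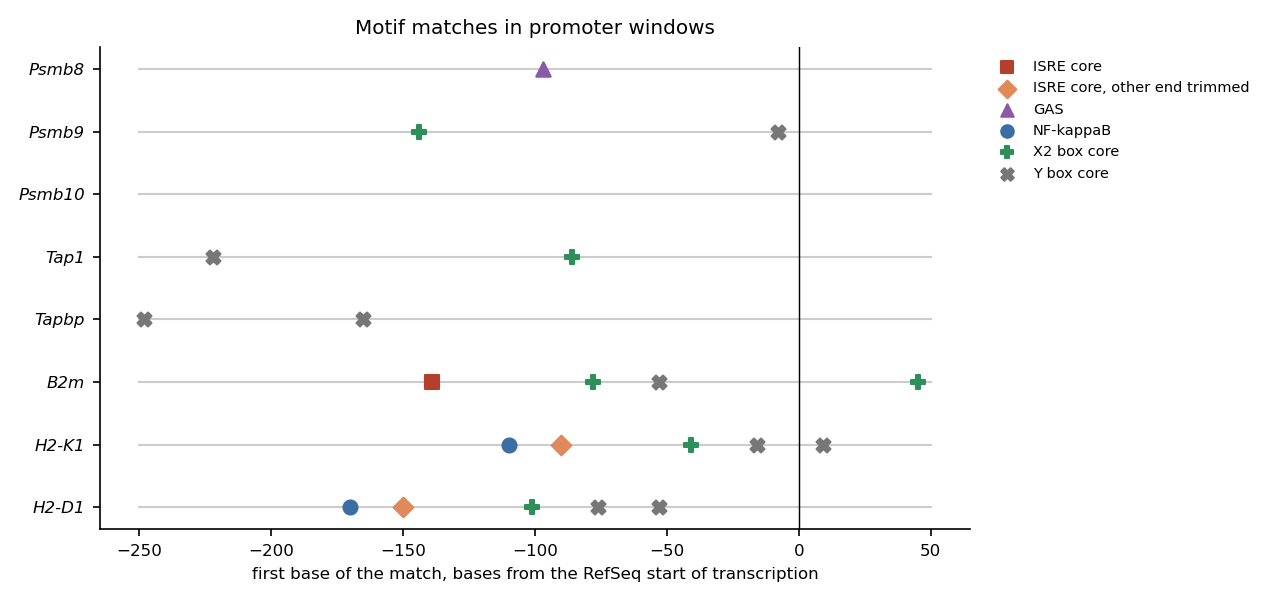
Positions of motif matches in the RefSeq windows of 8 genes, as bases from the start of transcription on the horizontal axis, with each gene on a line. Symbols mark the first base of a match on either strand. B2m, H2-K1 and H2-D1 show TGACG and ATTGG at the same spacing of 25 bases, and Psmb10 shows no match to these letters.

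Nlrc5 (chr8:94472763-94527272, plus strand) had 73, 83 and 279 counts in knockout replicates 1, 2 and 3, against 58, 85 and 48 counts in the vehicle libraries. In CPM these were 2.12, 2.40 and 7.45 in knockout libraries, against 1.80, 2.33 and 1.25 in vehicle libraries. Knockout replicate 3 alone was high, and knockout replicate 2 lay just above vehicle replicate 2. On the log2 scale the difference was 1.16 (SE 0.50, 95% interval 0.03 to 2.28, edgeR adjusted p = 0.665), and it was 0.33 without knockout replicate 3. Ciita, the relative of Nlrc5 that activates class II genes, was too low to be tested, with 2, 6 and 22 counts in knockout libraries, against 2, 2 and 4 in vehicle libraries. Rfx5, a subunit of the factor through which Nlrc5 and Ciita reach their promoters, had a lower estimate of -0.76 (SE 0.32, edgeR adjusted p = 0.664). Its CPM were 5.79, 2.89 and 5.29 in knockout libraries, against 10.3, 7.70 and 5.61 in vehicle libraries, and knockout replicate 1 lay above vehicle replicate 3.

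Across the libraries, knockout replicates 2 and 3 were high and knockout replicate 1 was close to the vehicle libraries. The mean centred log2 CPM was -0.25, 0.65 and 0.65 in knockout replicates 1, 2 and 3, against -0.24, -0.43 and -0.38 in vehicle replicates 1, 2 and 3. Knockout replicate 2 lay above all vehicle libraries for 10 of the 10 genes, knockout replicate 3 for 9 and knockout replicate 1 for 2, against 34.8%, 28.7% and 22% of all tested genes. Both knockout replicates 2 and 3 did so for 9 genes, where 16.3% of tested genes did. Knockout replicate 2 was the highest library for 8 genes, and knockout replicate 3 was the highest for Tap1 and Nlrc5. The shares of all genes that were highest in these libraries were not counted. At an unadjusted p under 0.05, edgeR gave 9 of the 10 genes without knockout replicate 1, where 1940 of all 16071 genes met that mark in either direction. It gave 3 when knockout replicate 3, vehicle replicate 1 or vehicle replicate 3 was left out. In those fits, in that order, 961 of 16026, 1502 of 16126 and 594 of 16083 genes met that mark in either direction.

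The pattern over the 6 libraries, vehicle libraries included, differed between genes. Nlrc5 and Tap1 were farthest from the mean pattern of the 10, with root mean square distances of 0.55 each on the log2 scale, and H2-D1 was nearest at 0.20. Among 11568 other named genes of at least 1 CPM on average, whose median distance was 0.516, the nearest to that mean pattern was H2-Q4 at 0.106. It was followed by Leprel2 at 0.112, Sp100 at 0.119, Fap at 0.122, Grb10 at 0.131, Man1c1 at 0.133, Wipf1 at 0.134 and Cxcl16 at 0.139, over 6 libraries. H2-Q4, a class I gene, had 15.8, 24.4 and 29.5 CPM in knockout libraries, against 13.8, 12.2 and 12.6 CPM in vehicle libraries. Sp100, a nuclear body protein, had 9.45, 14.8 and 14.4 CPM in knockout libraries, against 9.35, 7.87 and 7.25 CPM in vehicle libraries. Fap, a protease of fibroblasts, had 4.36, 9.17 and 8.07 CPM in knockout libraries, against 4.30, 4.71 and 4.57 CPM in vehicle libraries.

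Of 22 other class I genes listed, 21 were in the table and 16 passed the filter. Of these, 12 had higher and 4 lower estimates (median log2 fold change 0.57), and 5 met an unadjusted p under 0.05 in edgeR, all higher. That count was 3 without knockout replicate 2, knockout replicate 3, vehicle replicate 2 or vehicle replicate 3, and the median was 0.33 without knockout replicate 2. H2-Q4 had a log2 fold change of 0.85 (SE 0.23), H2-T23 0.99 (SE 0.34) and H2-T24 1.08 (SE 0.34), with edgeR adjusted p of 0.53, 0.633 and 0.621. H2-T23, which encodes the mouse Qa-1 molecule, had 7.01, 20.4 and 16.8 CPM in knockout libraries, against 7.80, 6.85 and 7.62 CPM in vehicle libraries, again with knockout replicate 1 at the vehicle level. H2-T24 did not overlap between the groups. H2-M2 was at 0 in all libraries, where a count of 3 corresponds to 0.0783 to 0.0929 CPM.

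Ligands were at or near the floor. Ifng and the 9 other interferon genes listed had 0 counts in all 6 libraries, and Tnf, a cytokine that also raises class I, had at most 3 counts in any library. Of 22 tested genes for interferon receptors, signalling and class I regulation, 10 had higher and 12 lower estimates, with a median of -0.03, and with FPKM the split was 11 and 11. Irf1, an early interferon gamma target that binds class I promoters, had 3.93, 10.4 and 15.95 CPM in knockout libraries, against 6.84, 7.26 and 6.10 CPM in vehicle libraries. Like Tap1 and H2-D1, Irf1 was lowest of all in knockout replicate 1, and its log2 fold change was 0.58 (SE 0.42, edgeR adjusted p = 0.783). At an unadjusted p under 0.05 edgeR gave Irf7, a type I interferon regulator, at 1.00 (SE 0.41) and the receptor chain Ifngr1 at 0.49 (SE 0.21), both higher, and Rfx5, which was lower. Over all genes 4.02% met that mark with a higher estimate. In this list the higher count was 0 without knockout replicate 2, knockout replicate 3, vehicle replicate 2 or vehicle replicate 3, and 5 without knockout replicate 1. With limma on log2(FPKM + 0.1) it was 0 in either direction.

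**Figure D4:**
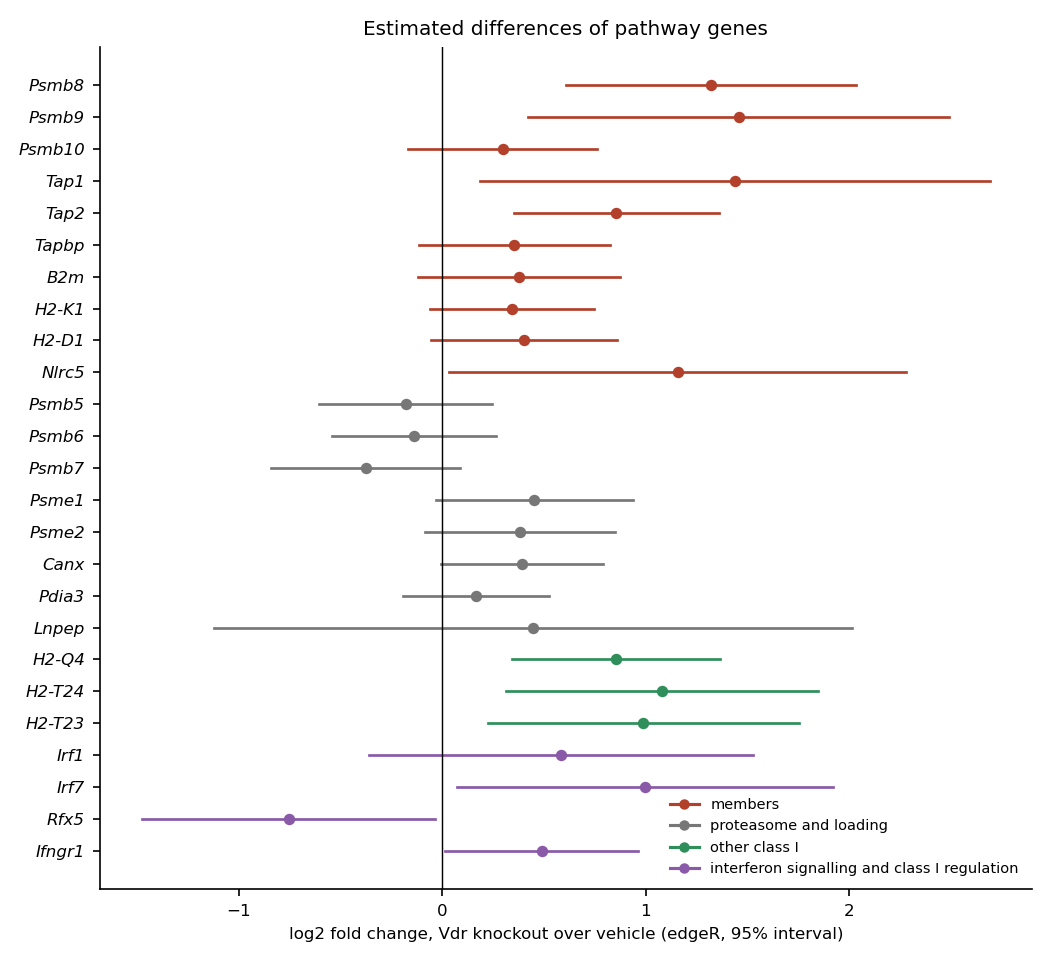
Log2 fold change of Vdr knockout over vehicle from edgeR on the horizontal axis, with 95% intervals, for the 10 genes, proteasome and loading genes, other class I genes and interferon signalling genes. Positive values are higher in the knockout. The intervals of Psmb8, Psmb9, Tap1, Tap2 and Nlrc5 lie above 0, those of the constitutive subunits Psmb5, Psmb6 and Psmb7 include 0, and no gene passed the adjusted threshold.

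Lists of other interferon-responsive genes were counted in the same way. All 13 tested GTPases had higher estimates (median log2 fold change 1.27), and 10 met an unadjusted p under 0.05 in edgeR. Iigp1, an immunity-related GTPase, had 18.2, 16.7 and 23.96 CPM in knockout libraries, against 5.88, 5.59 and 5.64 CPM in vehicle libraries (log2 fold change 1.78, SE 0.20, edgeR adjusted p = 0.058). Gbp7 and Gbp3, guanylate-binding proteins, had 1.26 (SE 0.23) and 1.95 (SE 0.39). The DESeq2 adjusted p was 6.97e-10 for Iigp1, 0.00173 for Gbp7 and 0.000254 for Gbp3, where DESeq2 called 0.281% of 18523 genes as higher. No GTPase passed the edgeR threshold with all libraries. Without knockout replicate 1 edgeR called 4 of the 13, where it called 0.124% of 16071 genes as higher. Of 16 type I interferon targets 15 had higher estimates, with a median of 0.98, and 9 met that unadjusted mark, 8 with DESeq2 size factors and 2 to 4 without knockout replicate 2, knockout replicate 3 or vehicle replicate 3. Ifit3 had 1.15 (SE 0.31), Xaf1 1.10 (SE 0.31) and Oas2 0.97 (SE 0.34). In knockout replicate 1 the mean centred log2 CPM of the GTPases was -0.16, above the -0.48, -0.64 and -0.70 of the vehicle libraries. For the type I targets it was -0.25 in that library, against -0.36, -0.25 and -0.72 in vehicle libraries.

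Class I genes are expressed in all nucleated cells and most strongly in immune cells, and the markers of some other cells were also high in knockout replicates 2 and 3. In whole muscle, more cells of a type and more RNA per cell cannot be told apart. The 14 macrophage markers summed to 53.0, 163 and 158 CPM in knockout replicates 1, 2 and 3, against 75.2, 64.2 and 41.5 CPM in vehicle libraries. Of the 12 that passed the filter 11 had higher estimates (median log2 fold change 1.23), and 8 met an unadjusted p under 0.05 in edgeR, but 0 without knockout replicate 2, knockout replicate 3 or vehicle replicate 3. C1qa and C1qc, complement chains made by macrophages, had 1.23 (SE 0.41) and 1.59 (SE 0.54), and Csf1r, the macrophage growth factor receptor, had 1.29 (SE 0.45). Fcgr1, a receptor for antibodies, was at 0 in vehicle replicate 3, and no macrophage marker was at 0 in all libraries. Ptprc, the marker of all leukocytes, chosen after its values were seen, had 1.43, 1.59 and 2.64 CPM in knockout libraries, against 1.18, 4.25 and 0.678 CPM in vehicle libraries.

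Class II genes summed to 31.4, 119 and 110 CPM in knockout libraries, against 72.0, 60.8 and 46.7 CPM in vehicle libraries, with higher estimates for 6 of 6 tested genes (median log2 fold change 0.53) and 0 at an unadjusted p under 0.05 in edgeR. Without knockout replicate 1 that count was 5 and the median 0.94, and without knockout replicate 2 the median was 0.17. In both the macrophage and the class II sums knockout replicate 1 lay below vehicle replicates 1 and 2. Fibro-adipogenic markers summed to 1111, 2683 and 1975 CPM in knockout libraries, against 1548, 1600 and 1148 CPM in vehicle libraries, with 6 of 6 estimates higher. Their median log2 fold change was 0.80, and 1 met an unadjusted p under 0.05 in edgeR. That count was 4 without knockout replicate 1, and 0 without knockout replicate 2 or vehicle replicate 3. Without knockout replicate 2, 5 of the 6 estimates were higher and the median was 0.48. Adipocyte markers summed to 380, 658 and 247 CPM in knockout libraries, against 301, 226 and 219 CPM in vehicle libraries. All 5 had higher estimates (median log2 fold change 1.21), and 4 met an unadjusted p under 0.05 in edgeR, but 0 without knockout replicate 1, knockout replicate 2 or vehicle replicate 3. Endothelial markers ran from 269 to 300 CPM in knockout and from 231 to 313 CPM in vehicle libraries. Dendritic cell markers ran from 7.10 to 10.8 CPM in knockout and from 9.60 to 10.3 CPM in vehicle libraries.

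Lymphocyte markers were near the floor. The 13 T and natural killer cell markers together ran from 0.668 to 0.984 CPM in knockout and from 0.209 to 0.650 CPM in vehicle libraries, with Prf1 and Ncr1 at 0, and none passed the filter. The 4 B cell markers ran from 0.260 to 0.534 CPM in knockout and from 0.217 to 0.356 CPM in vehicle libraries, with Ms4a1 at 0. Neutrophil markers summed to 5.38, 37.2 and 8.71 CPM in knockout libraries, against 3.10, 34.6 and 4.51 CPM in vehicle libraries. Blood markers summed to 1332, 3184 and 531 CPM in knockout libraries, against 604, 3605 and 795 CPM in vehicle libraries. Both were high in the libraries numbered 2 of each group. The part that macrophages, fibro-adipogenic cells, adipocytes, neutrophils or blood had in the class I values was not tested. Nor was that of the fibre composition of knockout replicate 2.

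**Figure D5:**
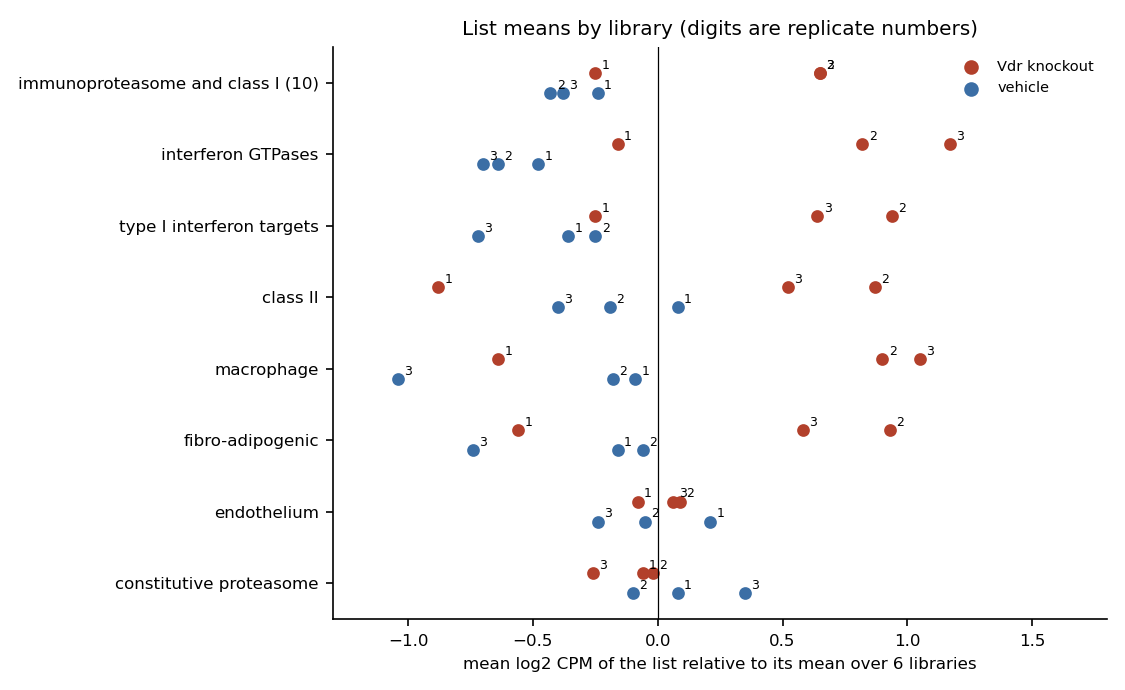
Mean log2 CPM of 8 gene lists in each library, relative to the list's mean over the 6 libraries, with Vdr knockout points above vehicle points for each list and replicate numbers beside the points. For the 10 immunoproteasome and class I genes, knockout replicates 2 and 3 coincide at 0.65 and knockout replicate 1 sits at -0.25 among the vehicle libraries. Knockout replicate 1 is above all vehicle libraries for the interferon GTPases and below vehicle replicates 1 and 2 for macrophage markers.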

How the data were processed

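Polyadenylated RNA of 6 gastrocnemius muscles was sequenced (TruSeq Stranded mRNA, per the labels' protocols). The authors deposited a read count per gene and library. The submitters' processing notes name mm10, the aligner STAR 2.6.1c, bcl2fastq, and featureCounts in Subread 1.5.1. Neither the annotation release nor the strand setting is given in the sources used here. The deposited FPKM equalled the count divided by gene length plus 1 and by the library total, so they carry no further normalization. Of the 43346 genes, 19501 were at 0 in all libraries.

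The count model was edgeR 4.0.16 in R 4.3.3. The filter filterByExpr, at a minimum count of 10 and total of 15, left 15583 genes, which were scaled by TMM factors of 0.912 to 1.13. Knockout was compared with vehicle by a two-sided robust quasi-likelihood test with no covariates. Benjamini-Hochberg adjustment ran over every tested gene (threshold 0.05), and standard errors come from the F statistic. The common biological coefficient of variation was 0.270. Centred log2 CPM used a prior count of 2. Library totals ran from 30486874 to 39909535, and a count of 3, taken as the floor, was 0.0783 to 0.0929 CPM on the TMM scale. Intervals over libraries cover the spread between these mice. Any 2 libraries of a group differed by more than sampling noise. The fit was checked on simulated counts.

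Ratios of FPKM were tested by exact permutation over libraries. Alternatives were DESeq2 1.42.0, limma 3.58.1 with voom or on log2(FPKM + 0.1) and log2(FPKM + 1), other size factors, other filters and leaving out each library. Limma fold changes on FPKM are on the log2(FPKM + pseudocount) scale, which understates those of low genes. Gene lists matched 202 of 204 symbols, Adgre1 by its identifier. Strands and overlaps are from GENCODE M21, in which 78.9% of the shared identifiers had the table's start and end. Promoter windows are from RefSeq on GRCm38.p6.

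Genes that could be named were the 10 genes, the 3 genes of smallest p in each list, the constitutive counterparts, Psme1, Psme2, Irf1, Ciita, Ifng and Vdr, and the 8 genes nearest in pattern, except 1 gene that is not reported here. Ptprc, Fcgr1, Tnf, H2-M2, H2-M3, H2-Q7 and the genes at 0 among cell markers lie outside this rule and were picked with their values in view. The genes and lists were chosen with earlier results of these data known, so nothing here is independent support for them.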

Additional observations from a re-analysis of the deposited data

How the results depend on the processing

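The log2 fold changes of the 10 genes were positive in all 170 values from 17 alternatives. Of these, 168 stayed on the same side of the adjusted threshold. The other 2 passed it, Psmb8 with DESeq2 and Tap1 without knockout replicate 1, so that 1 of the 10 genes was called in each of those fits and 0 in all others. At an unadjusted p under 0.05, edgeR gave 5 of the 10 genes, limma-voom 3, limma on log2(FPKM + 0.1) 2 with and 2 without a filter, and limma on log2(FPKM + 1) 3. In either direction, 1159 of all 15583 genes met that mark with edgeR and 1175 of 15583 with limma-voom. Limma on log2(FPKM + 0.1) gave 1069 of 16663 with and 1251 of 23845 without a filter, and on log2(FPKM + 1) 1047 of 16663. Leaving out 1 library gave 3 to 9 genes, with 9 without knockout replicate 1, while the count over all genes ran from 594 without vehicle replicate 3 to 1940 without knockout replicate 1. The median log2 fold change ran from 0.34 without knockout replicate 3 to 0.78 without knockout replicate 1, and was 0.44 on log2(FPKM + 1). Over all genes, edgeR called 0. It called 4 with DESeq2 size factors, 29 with no low-count filter and 0 to 24 without 1 library, 24 of them without knockout replicate 1 and 6 without knockout replicate 2. DESeq2 called 110, limma on log2(FPKM + 0.1) called 1, and limma-voom called 4 with sample quality weights. Groups that did not overlap were counted for 2 of the 10 genes, where 5.83% of tested genes had knockout above vehicle. Without 1 library the count ran from 2 to 9, and fewer libraries make such separation easier for any gene. It was 9 without knockout replicate 1, where 16.3% of tested genes had knockout replicates 2 and 3 above all vehicle libraries. Without vehicle replicate 1 it was 4, and the share over all genes was not counted there. The cause of these differences between settings was not tested. In the fits without 1 library, having fewer libraries and lacking that mouse cannot be told apart. No paired analysis was possible because the labels give no replicate numbers shared between groups. Low counts limit Psmb9, Tap1 and Nlrc5, which had under 100 counts in every vehicle library and in knockout replicate 1, and 3 mice a group limit all values.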

Other observations

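Of the 10 genes, Tap1 and Nlrc5 peaked in knockout replicate 3, and the share of all genes that did so was not counted. Tap1 had 426 counts in knockout replicate 3 and 273 in knockout replicate 2, and Nlrc5 had 279 and 83 in those libraries. Irf1, with 597 and 359 counts, and Ciita, with 22 and 6 counts, had the same order, whereas Psmb9, which shares its upstream interval with Tap1, had 179 and 219. These genes were picked after their values were seen, and the order within knockout mice was not tested.

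Among the class I genes outside the 10, H2-M3, which presents formylated peptides, had 2.47, 4.17 and 3.98 CPM in knockout libraries, against 2.35, 2.17 and 1.62 CPM in vehicle libraries. H2-Q7, a member of the Qa-2 group, had 3.40, 5.47 and 9.64 CPM in knockout libraries, against 3.31, 4.001 and 2.56 CPM in vehicle libraries. H2-M3 did not overlap between the groups, and H2-Q7 did. Their log2 fold changes were 0.79 (SE 0.31, edgeR adjusted p = 0.645) and 0.91 (SE 0.38, edgeR adjusted p = 0.651). Both were named because they completed the 5 class I genes that met an unadjusted p under 0.05.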
